A study of Mus musculus with 18 samples.

Results

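An RNA-sequencing series followed red cell differentiation under knockdown of the RNA-binding protein PCBP2 in 6 of its 18 libraries, 3 from Day 2 and 3 from Day 0, chosen by their titles. The cells were hematopoietic progenitors from the livers of CD-1 mouse fetuses at embryonic day 14.5, depleted of mature cells with antibodies, and transduced with a retrovirus (MSCV-PIG, which also carries puromycin resistance and GFP) that expresses a short hairpin RNA (shRNA). In the Day 2 PCBP2 knockdown, cells with Pcbp2 hairpin 1, 3 or 4 had spent 2 days in differentiation medium with serum and erythropoietin at 5 U/mL. In the Day 0 PCBP2 knockdown, cells with the same 3 hairpins were taken at the end of expansion culture, in medium with dexamethasone, stem cell factor and erythropoietin at 0.5 U/mL. The series holds 2 comparison conditions with 3 libraries a day, a PCBP1 knockdown (hairpins 1, 3 and 4) and controls. The controls are SCR-1 and SCR-2, with a scrambled hairpin, and LUC-1, with a luciferase hairpin. The titles do not say whether SCR-1 and SCR-2 carry different hairpins. All 18 libraries carry the viral vector and a hairpin, and none is untransduced. The day compares media as well as time. Knockdown libraries of a group carry different hairpins, so their spread includes differences between hairpins. The labels do not say whether libraries came from separate litters or starting cell pools. Nor do they say whether both days of a hairpin share a culture. The p-values thus measure the spread between these libraries, which may not include that between animals.

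PCBP2 is a poly(C)-binding protein, with KH domains that bind cytosine-rich single-stranded RNA. It acts in splicing, translation and mRNA stability, and it also binds iron. Red cell precursors that leave the expanding progenitor pool switch on globin and heme synthesis, build the membrane skeleton of the red cell, stop dividing and in the end clear their organelles and nucleus. The transcription factors GATA1, TAL1 and KLF1 drive many of those genes, and erythropoietin keeps the cells alive through STAT5.

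Estimated reads numbered 27033440 to 29872250 per library in the Day 2 PCBP2 knockdown and 32040290 to 54096339 in the Day 0 PCBP2 knockdown. Globin genes took 25.9% to 28.6% of the reads on Day 2 and 0.301% to 0.454% on Day 0. Levels given as CPM (counts scaled to a fixed library size) were scaled by TMM, a method that centres most genes on no change, so CPM values compare 1 gene between days. With plain library totals in place of TMM the median change of all genes moved by -1.42 on the log2 scale, and all changes below are relative to the TMM centre. Levels compared between genes are given as TPM (a share of transcripts, per length). RNA was measured in bulk, so fewer cells of a type and less RNA per cell cannot be told apart.

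Most genes differed between the days. By edgeR's quasi-likelihood test at an adjusted p under 0.05, 7168 of 17500 tested genes rose on Day 2 (41.0%) and 7377 fell (42.2%). Against a minimum change of 2-fold, 5336 genes rose (30.5%) and 5111 fell (29.2%). With library totals those 2-fold counts were 2738 higher and 9021 lower, and with a trend in GC content removed they were 6371 higher and 3827 lower. The 3 libraries of Day 2 and the 3 of Day 0 did not overlap for 84.6% of the tested genes. Protein-coding genes made up 63.3% of the genes that rose more than 2-fold and 93.1% of those that fell, against 77.7% of all tested genes. These shares are the measure for each list below. The median log2 change was -0.04 over all tested genes, and the median size of a change, up or down, was 1.72.

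Pcbp2 itself stood at 39.5, 37.0 and 48.0 CPM in the Day 2 libraries (hairpins 1, 3 and 4), against 71.0, 70.3 and 73.5 CPM on Day 0. The groups did not overlap, and the fitted log2 change was -0.79 (SE 0.10, edgeR adjusted p 1.41e-07). Relative to the controls of the same day, Pcbp2 was lower by a log2 difference of -2.49 (SE 0.10) on Day 2 and -2.01 (SE 0.10) on Day 0. The hairpins thus left Pcbp2 mRNA below control on both days. Its paralog Pcbp1, which binds similar RNA, had 240, 214 and 250 CPM on Day 2 and 193, 179 and 212 CPM on Day 0. These groups did not overlap, but the test did not call Pcbp1 (log2 0.27, SE 0.35, edgeR adjusted p 0.477). The spread in that test is from all 18 libraries, which include those with hairpins against Pcbp1 itself. The missing call thus does not show that Pcbp1 was unchanged. Pcbp3 fell by 2.88 on the log2 scale, to 0.786 CPM on Day 2 against 5.83 CPM on Day 0. Hnrnpk, a related KH-domain protein, changed by -0.16 on the log2 scale (edgeR adjusted p 0.0429), and by 0.21 with the GC trend removed. Pcbp4 had 0.191, 0 and 0.109 CPM on Day 2 and 3.59, 2.76 and 3.17 CPM on Day 0.

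The globins were the most abundant transcripts of Day 2. Adult alpha- and beta-globin mRNA summed to 485495 to 509680 TPM per library on Day 2 and to 7030 to 10086 TPM on Day 0. Hba-a1, an adult alpha-globin gene, had 156538, 119383 and 136737 CPM on Day 2, against 583, 422 and 815 CPM on Day 0 (log2 7.83, SE 0.26). Hbb-bs, an adult beta-globin gene, had 250461, 214268 and 224073 CPM on Day 2, against 1344, 1110 and 1586 CPM on Day 0 (log2 7.41, SE 0.16). No Day 2 library came near the Day 0 range of either gene. Their near-identical copies Hba-a2 (log2 8.85) and Hbb-bt (log2 7.81) also rose, and how reads were split between copies is uncertain. All 4 tested adult globin genes rose, and Ahsp, Hbb-b1 and Hbb-b2 were not analysed here. All 4 tested embryonic globin genes rose as well, at low levels. Hbb-bh1, an embryonic beta-like globin, had 23.3, 12.9 and 15.9 CPM on Day 2 and 0.212, 0.157 and 0.266 CPM on Day 0. Hba-x reached 3.34 CPM on Day 2 against 0.0836 CPM on Day 0, and Hbb-y 4.99 against 0.176 CPM. For Hbb-bh2, each Day 2 library held 6 reads and each Day 0 library none.

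**Figure D1:**
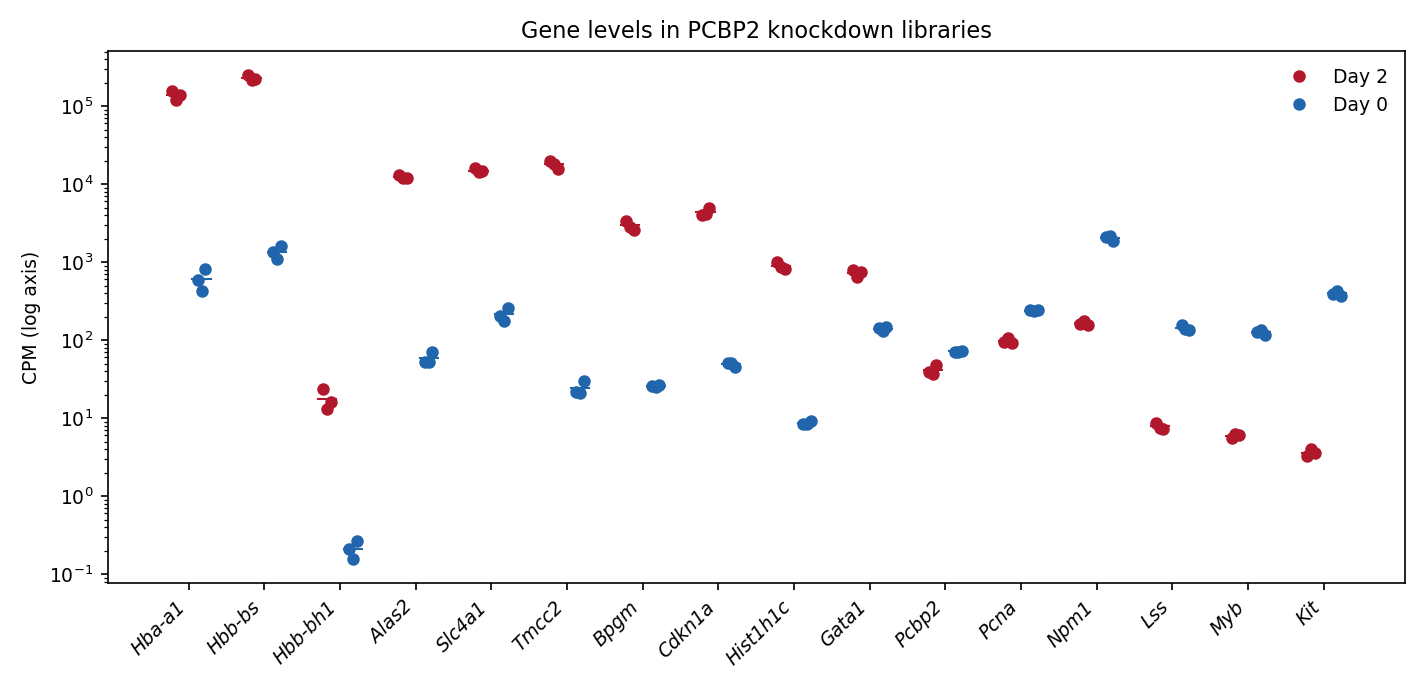
CPM (log axis) of 16 genes in each PCBP2 knockdown library, with Day 2 points left of Day 0 points and a bar at each mean. Globin, heme and membrane genes such as Hbb-bs (214268 to 250461 CPM on Day 2) lie far above their Day 0 points, while Kit (3.24 to 4.05 CPM on Day 2) lies far below.

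Heme synthesis rose with the globins. Of 16 tested genes of the heme pathway 13 rose and 2 fell, with a median log2 change of 2.79. Alas2, the erythroid enzyme that starts heme synthesis in mitochondria, had 13250, 11952 and 11972 CPM on Day 2 and 52.4, 51.9 and 70.3 CPM on Day 0 (log2 7.73, SE 0.15, edgeR adjusted p 2.07e-20). Alas1, the form of that enzyme used in other tissues, fell to 2.87 ± 0.296 CPM on Day 2, against 32.2 ± 1.30 CPM on Day 0 (SD, n = 3 each). The paralogs thus moved in opposite directions. Slc25a39, a mitochondrial carrier needed for heme synthesis, rose by a log2 change of 4.99, and Fam210b by 3.78. Tmem14c, which carries a heme precursor in mitochondria, changed by -0.41 on the log2 scale, and by 0.17 with the GC trend removed. Cpox, a late enzyme of the pathway, changed by 0.74, and by -0.68 with library totals.

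The 250 bases before the start of 3 genes are printed here because they stand for groups that moved in opposite directions: Hba-a1 (chr11:32283422-32283671, plus strand) and Alas2 (chrX:150547167-150547416, plus strand), which rose, and Lss of cholesterol synthesis (chr10:76531355-76531604, plus strand), which fell. The sequences are RefSeq's for GRCm38.p6. Capitals mark 4 motifs, on the printed strand or as the reverse complement. The first, AGATAA, is the core letters that GATA-family factors such as GATA1 bind in red cell genes. The second, CACCC, is a core bound by factors of the KLF1 family, which act in adult globin expression. The third, TATAAA, is the core of the box that helps place the start of transcription in some promoters. The fourth, CCAAT, is a box bound by the factor NF-Y in many promoters.
Hba-a1: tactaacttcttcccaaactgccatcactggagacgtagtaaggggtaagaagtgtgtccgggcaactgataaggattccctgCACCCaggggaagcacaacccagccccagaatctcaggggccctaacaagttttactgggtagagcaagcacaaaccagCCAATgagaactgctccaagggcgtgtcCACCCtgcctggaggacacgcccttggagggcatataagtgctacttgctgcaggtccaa
Alas2: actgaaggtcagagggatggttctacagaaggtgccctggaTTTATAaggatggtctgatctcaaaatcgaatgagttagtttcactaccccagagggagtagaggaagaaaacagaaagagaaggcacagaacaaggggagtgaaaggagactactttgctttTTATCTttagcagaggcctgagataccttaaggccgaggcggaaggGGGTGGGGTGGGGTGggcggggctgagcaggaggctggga
Lss: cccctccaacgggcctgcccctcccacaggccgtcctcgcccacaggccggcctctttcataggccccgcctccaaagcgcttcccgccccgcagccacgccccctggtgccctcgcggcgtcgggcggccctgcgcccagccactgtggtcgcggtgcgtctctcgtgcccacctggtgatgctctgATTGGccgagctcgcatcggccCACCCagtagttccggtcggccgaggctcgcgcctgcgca
Over windows of this length, CACCC was found in all 4 adult globin promoters with a sequence, in 11 of 14 heme synthesis, 8 of 12 membrane skeleton, 11 of 16 cholesterol synthesis and 19 of 33 DNA replication promoters, and in 54.5% of 27025 promoters of all genes. AGATAA was found in 1 of 4 adult globin, 1 of 14 heme synthesis, 4 of 12 membrane skeleton, 0 of 16 cholesterol synthesis and 2 of 33 DNA replication promoters, and in 11.4% of all promoters. CCAAT was found in all 4 adult globin, 6 of 14 heme synthesis, 7 of 12 membrane skeleton, all 16 cholesterol synthesis and 22 of 33 DNA replication promoters, and in 37.5% of all promoters. TATAAA was found in 1 of 4 adult globin, 2 of 14 heme synthesis and 1 of 12 membrane skeleton promoters. It was found in 0 of 16 cholesterol synthesis and 3 of 33 DNA replication promoters, and in 14.3% of all promoters. CACCC and CCAAT were thus found in every list counted, those that rose and those that fell. Of the lists that fell, AGATAA and TATAAA were found in DNA replication only. A match is a description of the letters in the window, not a binding site.

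Heme breakdown and iron storage genes included some of the larger increases. Hmox1, the oxygenase that opens the heme ring, had 2768, 2781 and 2435 CPM on Day 2 and 11.4, 10.6 and 8.25 CPM on Day 0 (log2 8.04, SE 0.21). Ftl1, the ferritin light chain, rose by 4.99 on the log2 scale, and Ncoa4, the receptor that delivers ferritin to lysosomes, by 3.56. Aco1, which encodes the iron regulatory protein IRP1, fell to 7.92 ± 1.44 CPM on Day 2, against 198 ± 38.0 CPM on Day 0 (SD, n = 3 each), and Fbxl5, an iron sensor of the ubiquitin system, fell by 2.40 on the log2 scale. Over the iron list 8 of 16 tested genes rose and 5 fell, and its median of 0.49 turned to -0.94 with library totals. Heme breakdown and export had 5 of 8 higher and 3 lower, with a median of 1.32 that turned to -0.10 with library totals; its lower members included Flvcr1, a heme exporter (log2 -1.15).

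Transcription factors of the erythroid programme mostly rose and those of progenitors mostly fell. Of 20 tested erythroid factors 13 rose and 5 fell (median log2 1.64, or 0.22 with library totals). Of 19 tested progenitor factors and stem cell genes 3 rose and 14 fell (median -1.57). Cbfa2t3, a corepressor in GATA1 and TAL1 complexes, had 675, 593 and 732 CPM on Day 2 and 20.7, 18.4 and 19.9 CPM on Day 0. Nfe2, which drives globin and late erythroid genes, rose by 4.40 on the log2 scale, and Tal1 by 3.86. Gata1, added here for its role after its values were seen, rose by 2.38 (SE 0.09), to 726 CPM on Day 2 against 140 CPM on Day 0. Klf1, named for its CACCC-binding role in adult globin expression, had 207, 180 and 223 CPM on Day 2 and 75, 62.6 and 83.8 CPM on Day 0 (log2 1.46, SE 0.14). With library totals the change of Klf1 was 0.04.

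Among the progenitor genes, Kit, the receptor for stem cell factor, had 3.24, 4.05 and 3.55 CPM on Day 2 and 390, 428 and 370 CPM on Day 0. Its log2 change of -6.77 (SE 0.14, edgeR adjusted p 3.69e-20) was among the 12 largest decreases of genes averaging at least 10 CPM. Myb, a factor that keeps progenitors dividing, fell to 5.97 ± 0.401 CPM on Day 2, against 125 ± 9.0 CPM on Day 0 (SD, n = 3 each). Of 12 tested regulators of the globin switch 4 rose and 7 fell, and the falling members included both fetal-stage and adult-stage factors. Lin28b, an RNA-binding protein of the fetal programme, fell by 3.83 on the log2 scale, and Igf2bp1, one of its partners in that programme, by 3.10. Bcl11a, a repressor of embryonic globin genes, fell by 2.98, while Sox6, its partner, rose by 3.02.

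Cytokine receptors and their signalling genes moved both ways. Of 16 tested receptors of progenitors 7 rose and 7 fell, with a median log2 change of -0.09. Epor, the erythropoietin receptor, rose to 361 ± 64.7 CPM on Day 2, against 62.1 ± 9.54 CPM on Day 0 (SD, n = 3 each), and Csf2rb2, a receptor chain for interleukin 3, rose by 3.91 on the log2 scale. Flt3, a receptor of early progenitors, fell by 3.80. Of 18 tested genes of the erythropoietin and STAT5 list 8 rose and 7 fell, with a median of 0.35 that turned to -1.08 with library totals. The targets Cish (1172, 1214 and 1019 CPM on Day 2, 19, 19.6 and 21.6 CPM on Day 0), Pim1 (log2 5.97) and Bcl2l1 (log2 6.01) were at its upper end. Stat5a, the transducer itself, was at the lower end (log2 -3.55, SE 0.18). Cish is a feedback inhibitor of the receptor, Pim1 a kinase and Bcl2l1 a survival protein. Of 19 tested genes that glucocorticoids induce in other settings, 11 rose and 6 fell (median 0.40, or -1.02 with library totals). Fkbp5, a classic glucocorticoid target, fell to 6.29, 5.63 and 5.52 CPM on Day 2, against 235, 222 and 228 CPM on Day 0. Per1, also a target, rose by 4.36 on the log2 scale, so the list did not move 1 way when dexamethasone was no longer listed in the medium.

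The membrane skeleton of the red cell rose in 13 of 17 tested genes and fell in 3, with a median log2 change of 3.05. Slc4a1, the anion exchanger band 3, had 15987, 14169 and 14499 CPM on Day 2 and 204, 177 and 260 CPM on Day 0 (log2 6.12, SE 0.14). Tmcc2, a transmembrane coiled-coil protein, had 19984, 18158 and 15687 CPM on Day 2 and 21.5, 20.7 and 30.2 CPM on Day 0 (log2 9.54, SE 0.22). Every Day 2 library exceeded every Day 0 library by far for both. Epb42, protein 4.2, rose by 6.09. The 3 that fell were Tpm3, a tropomyosin (log2 -1.62), Actb, the actin of most cells (-0.68), and Add3, the adducin chain of other tissues (-0.88). Among 19 surface antigens 14 rose and 4 fell (median 1.24, or -0.18 with library totals). Cd44, an adhesion molecule lost as erythroblasts mature, fell by 1.48 on the log2 scale.

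Red cell metabolism and organelle clearance rose in most members. Of 20 tested metabolic and antioxidant genes 15 rose and 5 fell (median 2.49). Bpgm, which makes 2,3-bisphosphoglycerate, had 3398, 2849 and 2603 CPM on Day 2 and 26.1, 24.9 and 26.4 CPM on Day 0. Slc2a1, the glucose transporter GLUT1, rose by 4.74, while Pklr, pyruvate kinase of red cells and liver, fell by 2.86. Of 23 tested genes of mitophagy, autophagy and protein turnover 21 rose and 2 fell, with a median of 3.63. Trim10 (log2 6.68) and the ubiquitin ligase Ube2o (log2 6.49), which clears ribosomes in reticulocytes, were its upper members. Xpo7, a nuclear exporter used in enucleation, had 7359, 6618 and 6181 CPM on Day 2 and 49.4, 52.5 and 55.9 CPM on Day 0. It was the upper end of a condensation and enucleation list in which 5 of 22 tested genes rose and 15 fell (median -0.90). The lower end of that list held Kat2a, a histone acetyltransferase (log2 -3.60), and Hdac2, a deacetylase (-3.05).

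**Figure D2:**
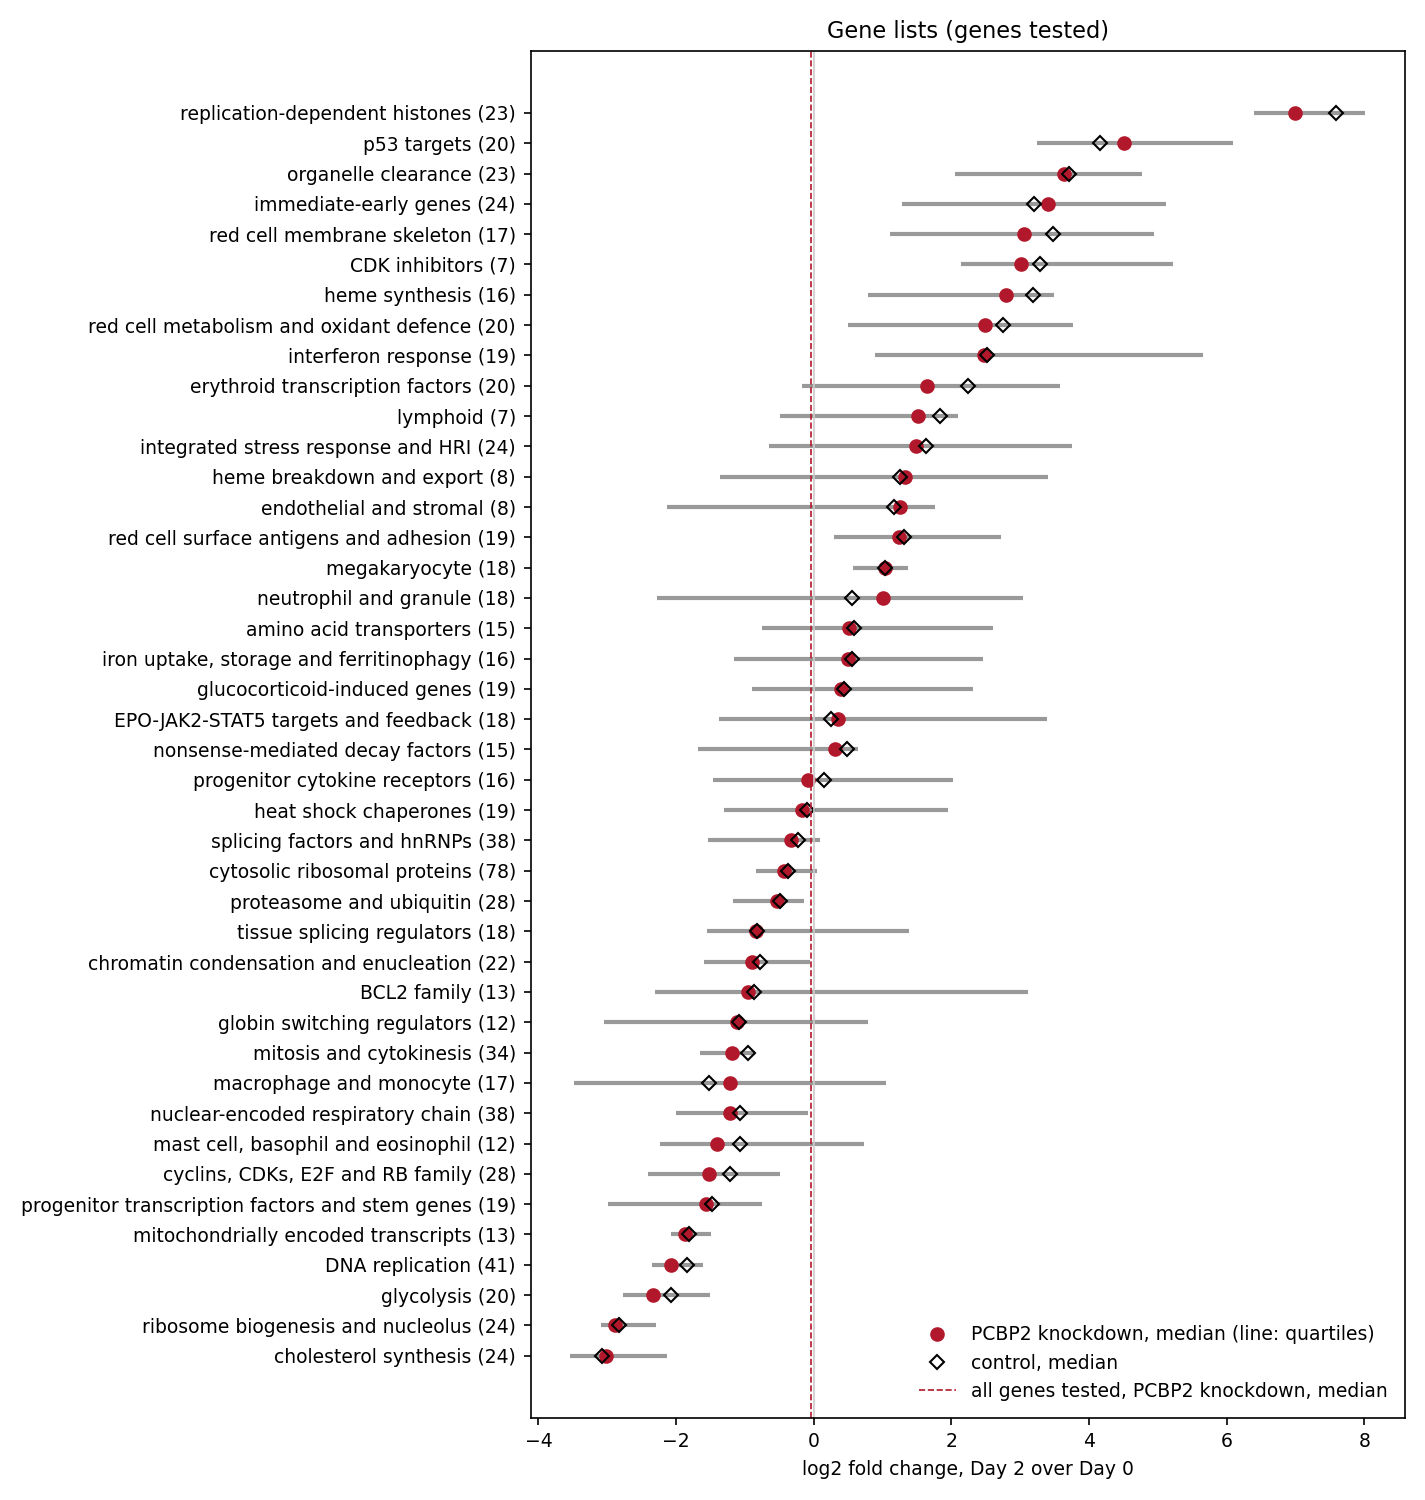
Median log2 change, Day 2 over Day 0, of the gene lists with at least 7 tested genes, hepatocyte genes left out, in the PCBP2 knockdown (filled points, with lines from the lower to the upper quartile of genes) and in the control (open diamonds). Among the lists drawn, medians ran from 6.99 for replication-dependent histones to -3.02 for cholesterol synthesis, and the dashed line marks all tested genes at -0.04.

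Genes of the cell cycle fell in most lists while CDK inhibitors rose. DNA replication had no rising member and 39 of 41 falling, with a median log2 change of -2.08. Pold2, a subunit of DNA polymerase delta, fell to 2.80, 3.42 and 2.35 CPM on Day 2, against 39.5, 35.4 and 38.5 CPM on Day 0. Mitosis and cytokinesis had 4 of 34 higher and 29 lower (median -1.19), and cyclins, CDKs and E2F factors had 6 of 28 higher and 22 lower (median -1.53). Members that rose in these lists included Incenp, of the chromosomal passenger complex (log2 2.61), Ube2c, which acts in ending mitosis (1.96), Ccne2, a cyclin of S-phase entry (4.07), and E2f2, an E2F factor of erythroblasts (3.58). Ccnd2, a cyclin of early G1, fell by 3.10.

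CDK inhibitors had 6 of 7 tested members higher and 1 lower. Cdkn1a, p21, had 4016, 4138 and 4941 CPM on Day 2 and 50.8, 50.5 and 45.1 CPM on Day 0 (log2 6.48, SE 0.17). Cdkn1b, p27, had 1070, 993 and 935 CPM on Day 2 and 36.0, 35.7 and 28.9 CPM on Day 0. The member that fell was Cdkn1c, p57 (log2 -3.65, SE 0.40).

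All 23 tested replication-dependent histone genes rose, with a median log2 change of 6.99. Their mRNAs normally end in a stem-loop without a poly(A) tail, and the labels do not say how libraries selected RNA beyond the TruSeq kit. Hist1h2ac had 66.0, 38.8 and 67.2 CPM on Day 2, against 0.0177, 0.0224 and 0.0570 CPM on Day 0. These transcripts moved opposite to the replication genes with which they are normally made. The part of RNA selection in this result was not tested.

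Targets of p53 rose in all 20 tested members, with a median of 4.50 against 4.15 in the controls. Gadd45a, a growth-arrest protein, had 4023, 4026 and 3072 CPM on Day 2 and 15.8, 15.7 and 16.2 CPM on Day 0 (log2 7.87, SE 0.14). Btg2, an antiproliferative factor, had 3907, 3633 and 3624 CPM on Day 2 and 33.6, 27.0 and 30.2 CPM on Day 0. Among BCL2 proteins 6 of 13 tested genes rose and 6 fell. Bbc3, the death-promoting PUMA, rose by 6.71 and Pmaip1, NOXA, by 3.27, while Bak1, a pore-forming death effector, fell by 2.98 and Bcl2, a survival protein, by 2.53.

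The integrated stress response in erythroid cells also reads heme supply through the kinase HRI. Its list had 16 of 24 tested genes higher and 7 lower (median 1.49, or 0.07 with library totals). Ppp1r15a, which ends the response by dephosphorylating eIF2alpha, had 7347, 6312 and 7271 CPM on Day 2 and 76.1, 70.5 and 67.1 CPM on Day 0. Ddit3, the factor CHOP, rose by 6.15. Psat1 (log2 -4.48) and Phgdh (-3.51), enzymes of serine synthesis that the response induces in other cells, fell. Amino acid transporters were mixed, with 8 of 15 higher and 5 lower (median 0.52, or -0.91 with library totals). Slc6a9, the glycine transporter that supplies heme synthesis, rose by 4.13, and Slc38a1, a glutamine transporter, fell by 3.95.

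Immediate-early genes rose in 19 of 24 tested members and fell in 4, with a median of 3.41. Jun had 563, 443 and 616 CPM on Day 2 and 9.02, 8.37 and 5.84 CPM on Day 0, and Spry4, an inhibitor of receptor kinase signalling, fell by 4.29. Heat shock chaperones had 7 of 19 higher and 8 lower. Hspa1a, the inducible HSP70, had 81.0, 42.5 and 69.4 CPM on Day 2 and 0.0531, 0.0896 and 0.209 CPM on Day 0, whereas the mitochondrial chaperone Hspd1 fell by 3.24. Interferon-induced genes had 14 of 19 higher and 3 lower (median 2.47). Isg15, a ubiquitin-like protein, had 610, 330 and 282 CPM on Day 2 and 0.743, 1.03 and 0.685 CPM on Day 0. Rsad2, viperin, had 1208, 1074 and 427 CPM on Day 2 and 2.11, 3.11 and 2.05 CPM on Day 0. The hairpin libraries of Day 2 differed more among themselves for these antiviral genes than for the globins, yet none reached the Day 0 range.

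Growth and biosynthesis fell. Ribosome biogenesis had 1 of 24 tested genes higher and 23 lower, with a median of -2.89. Npm1, a nucleolar chaperone, had 162, 176 and 157 CPM on Day 2 and 2095, 2183 and 1874 CPM on Day 0, and Polr1b, a subunit of RNA polymerase I, fell by 3.86. Cytosolic ribosomal proteins had 10 of 78 higher and 47 lower, with a median of -0.43 that turned to 0.10 with the GC trend removed. Rps12, in that list, shares reads with near-identical copies, and its value is uncertain.

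Cholesterol synthesis had 2 of 24 tested genes higher and 22 lower, with a median of -3.02. Lss, which closes the sterol rings, had 8.77, 7.47 and 7.32 CPM on Day 2 and 157, 138 and 135 CPM on Day 0 (log2 -4.19, SE 0.13). Dhcr7, which makes cholesterol in the last step, fell by 4.82. Among the exceptions was Insig1, a sterol-dependent regulator of the pathway (log2 1.50, or 0.07 with library totals). Glycolysis had 1 of 20 higher and 16 lower (median -2.34). Hk2, a hexokinase, had 2.41, 3.84 and 4.37 CPM on Day 2 and 92.9, 91.3 and 77.4 CPM on Day 0, and Ldha, lactate dehydrogenase, fell by 4.55. The member of this list that rose was the transporter Slc2a1.

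Nuclear-encoded respiratory chain genes had 5 of 38 higher and 27 lower (median -1.22). Transcripts of the mitochondrial genome fell in 12 of 13 tested genes, with none higher (median -1.87). They took 0.570% to 0.721% of the reads on Day 2 and 3.09% to 3.15% on Day 0. Proteasome genes had 5 of 28 higher and 20 lower (median -0.54, or -0.01 with the GC trend removed). Ubb (log2 3.88), a polyubiquitin gene in the same list, rose.

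The largest increases among genes averaging at least 10 CPM included genes outside these lists. Vgf, a secreted neuropeptide precursor, had 352, 363 and 262 CPM on Day 2 and 0.124, 0.123 and 0.323 CPM on Day 0 (log2 10.81, SE 0.38). Ackr3, an atypical chemokine receptor, had 249, 198 and 223 CPM on Day 2 and 0.0708, 0.0784 and 0.133 CPM on Day 0 (log2 11.21, SE 0.31). Hsd3b6, a steroid dehydrogenase, had 417, 563 and 808 reads on Day 2 and none in any Day 0 library. Among the largest decreases, Atp1b1, a sodium pump subunit, had 0.0635, 0.210 and 0.219 CPM on Day 2 and 27.7, 25.7 and 19.1 CPM on Day 0 (log2 -7.13, SE 0.27). Prelid2 fell by 6.92, Gsta4, a glutathione transferase, by 6.65, and Ak4, an adenylate kinase of mitochondria, by 6.65.

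Markers of other blood cells were present on both days. Their summed levels are given in TMM-scaled CPM over the tested genes, and in TPM over the whole list, where globins take a large part of the Day 2 total. Neutrophil genes moved both ways. Elane, a protease of early granules, had 0.699, 0.947 and 0.874 CPM on Day 2 and 50.2, 39.1 and 50.7 CPM on Day 0, Mpo fell by 5.08 on the log2 scale and Ctsg by 6.37. Ltf, lactoferrin, had 285, 307 and 291 CPM on Day 2 and 6.72, 7.46 and 5.93 CPM on Day 0, and Mmp9 rose by 7.87. In all, 10 of 18 tested neutrophil genes rose and 7 fell (median 1.00, or -0.42 with library totals), and their summed level was 1400 to 1480 CPM on Day 2 and 1033 to 1113 CPM on Day 0. In TPM the order was the other way, with 1424 to 1774 on Day 2 and 2440 to 2950 on Day 0.

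Of 18 tested megakaryocyte genes 15 rose and 1 fell (median 1.04, or -0.38 with library totals), with Itga2b, an integrin shared with early progenitors, at 306, 289 and 347 CPM on Day 2 and 82.8, 75 and 85.0 CPM on Day 0. Their sum was 1599 to 1890 CPM on Day 2 and 771 to 820 CPM on Day 0, but 537 to 683 TPM on Day 2 and 883 to 912 TPM on Day 0. Macrophage genes had 5 of 17 higher and 11 lower, with a sum of 290 to 372 CPM on Day 2 and 119 to 135 CPM on Day 0, while the TPM sums overlapped (148 to 204 on Day 2 and 174 to 215 on Day 0). Timd4, Vsig4 and Cd5l of that list were at 0 on Day 2. Mast cell, basophil and eosinophil genes had 3 of 12 higher and 7 lower, summing to 168 to 233 CPM on Day 2 and 261 to 331 CPM on Day 0 (137 to 199 TPM on Day 2 and 402 to 543 TPM on Day 0), and Tpsb2 was at 0 on Day 2.

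Hepatocyte genes had none of 8 higher and 7 lower, with a sum of 2.57 to 3.05 CPM on Day 2 and 15.3 to 18.5 CPM on Day 0 (1.05 to 1.16 TPM on Day 2 and 28.1 to 40.5 TPM on Day 0). Apob, Apoh, Ttr, Serpina1a and Rbp4 were at 0 on Day 2. Endothelial and stromal genes had 5 of 8 higher and 3 lower, with a sum of 50.3 to 53.4 CPM on Day 2 and 80.4 to 88.0 CPM on Day 0 (13.9 to 15.8 TPM on Day 2 and 129 to 146 TPM on Day 0). Lymphoid genes had 5 of 7 higher and 2 lower, with a sum of 12 to 18.1 CPM on Day 2 and 5.77 to 6.67 CPM on Day 0, but 5.04 to 7.0 TPM on Day 2 and 11.2 to 14.2 TPM on Day 0, and its markers at 0 on Day 2 included Cd3e, Rag1 and Trbc1. The part of these cells in the changes above was not tested. The erythroid label is met by the defining markers: globins, Alas2 and Slc4a1 were high in every Day 2 library.

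The change with the day under PCBP2 knockdown was then set against the change in the controls. Across the 17500 tested genes, which are not independent replicates, the changes had a Pearson r of 0.956. The median size of a change was 1.72 in the PCBP2 knockdown and 1.70 in the control, and the changes of a gene differed by a median of 0.25 (median SE 0.29). Of 10447 genes past 2-fold, 14 had the opposite sign in the control. By edgeR's interaction test no gene passed an adjusted p under 0.05 (0.0% of tested genes). The smallest adjusted p was 0.183, and 1594 genes (9.11%) had an unadjusted p under 0.05. DESeq2 called 90 genes and limma voom with day weights 0. An edgeR fit without a filter on low counts called 169. The Day 2 LUC-1 control lay apart from the other Day 2 controls on the second principal component, and without it the edgeR count was again 0.

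**Figure D3:**
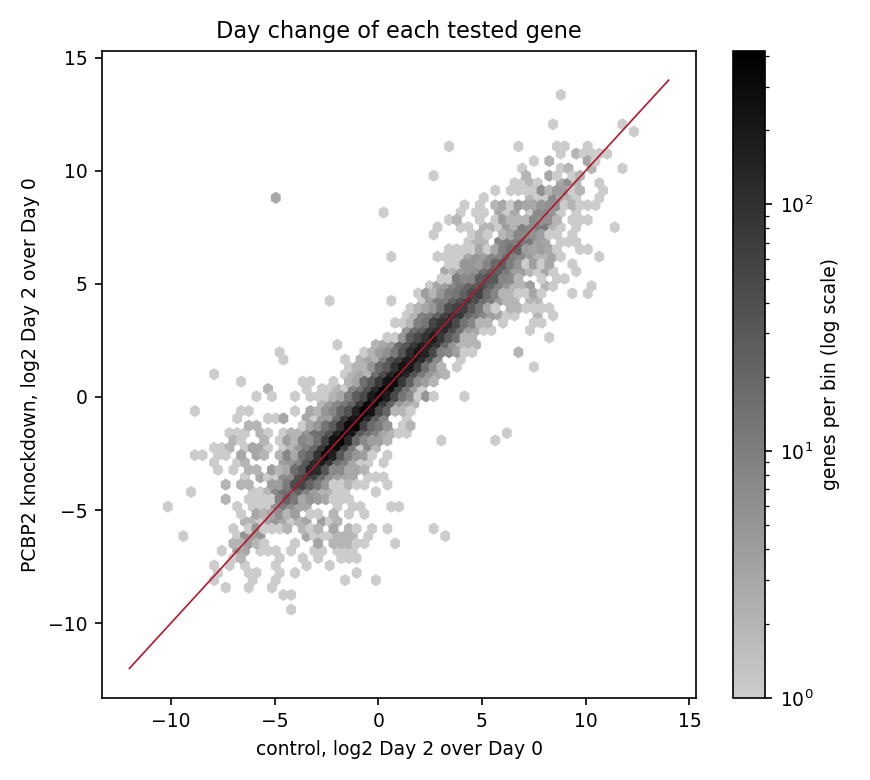
Fitted log2 change, Day 2 over Day 0, of each tested gene in the PCBP2 knockdown (vertical axis) and the control (horizontal axis), with genes per bin in grey and a line where both are equal. The genes lie along the line (Pearson r 0.956 across genes).

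The genes with the smallest p in this comparison are given as values, since none was called. Ddx19a, an RNA helicase of mRNA export, had 52.0, 55.4 and 52.2 CPM on Day 2 and 84.2, 85.0 and 93.0 CPM on Day 0 under PCBP2 knockdown, and 101, 83.8 and 89.6 CPM on Day 2 and 85.5, 86.1 and 93.5 CPM on Day 0 in the controls. The difference of its changes was -0.76 (SE 0.13, edgeR adjusted p 0.183). Zbtb7a, a repressor of fetal globin genes in human cells, had 91.3, 89.7 and 104 CPM on Day 2 and 39.8, 33.3 and 45.4 CPM on Day 0 under PCBP2 knockdown, and 130, 163 and 190 CPM on Day 2 and 37.9, 40.0 and 31.7 CPM on Day 0 in the controls. Its difference was -0.87 (SE 0.18, edgeR adjusted p 0.296). Slc43a2, an amino acid transporter, differed by -0.95. The positive differences were 1.19 for Atg9b, 0.64 for Unc119b, 1.25 for Ahcy and 1.53 for Rcor2.

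The change of each gene under PCBP2 knockdown minus that in the control was also summarised by list, with no test of the list. The median of these differences was -0.24 for heme synthesis, -0.39 for erythroid factors, -0.20 for the membrane skeleton, -0.06 for adult globins, -0.11 for heme breakdown and export and -0.23 for DNA replication, beside -0.04 over all tested genes. Other lists went both ways. The median was -0.50 for the 4 tested embryonic globins, which were at low levels, and -0.34 for replication-dependent histones. It was -0.28 for mitosis and cytokinesis, 0.22 for p53 targets and 0.31 for macrophage genes. With library totals in place of TMM the median over all tested genes was 0.17, so list medians of this size depend on the scaling. No member of any list named here was called for the difference.

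Against the PCBP1 knockdown the edgeR interaction test called 55 genes with a higher change under PCBP2 knockdown (0.314% of tested genes) and 162 with a lower one (0.926%). This count depended on single libraries: leaving out any 1 of 11 of the 12 knockdown libraries moved it by more than 1.5 times, to 45 without hairpin 1 of the Day 0 PCBP1 knockdown, 50 without hairpin 1 of the Day 0 PCBP2 knockdown and 1156 without hairpin 3 of the Day 2 PCBP1 knockdown. It was 812 without the Day 2 LUC-1 control, a library of neither knockdown, whose removal also changed the genes tested (17918) and the scaling. With the GC trend removed 123 were higher and 109 lower. Pebp1, an inhibitor of RAF kinase, had 54.4, 49.5 and 52.6 CPM on Day 2 and 143, 135 and 148 CPM on Day 0 under PCBP2 knockdown. In the PCBP1 knockdown it had 133, 135 and 149 CPM on Day 2 and 157, 141 and 140 CPM on Day 0, so Day 2 was apart from Day 0 in the PCBP2 knockdown and overlapped it in the PCBP1 knockdown. The difference of changes was -1.38 (SE 0.17, edgeR adjusted p 9.48e-04). Eid1, an inhibitor of the acetyltransferase EP300, differed by -1.19 (SE 0.15). Urb2, of ribosome biogenesis, differed by 1.02 (SE 0.15), and Tspan31 by 1.17 (SE 0.19). Ddx19a, named above for its small p against the control, had a difference of -0.79 here (SE 0.13, edgeR adjusted p 0.00784). Both comparisons use the same PCBP2 knockdown libraries, so this value is not a second, independent result.

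Splicing was described by local splicing variations, each the set of junctions and retained introns that leave (source) or enter (target) 1 exon. The deposited tables give the expected share of use of each junction, E(PSI), as 1 pooled value for a condition and day, so there are no replicates and no test. Of 80791 variations in both PCBP2 tables, 4830 (5.98%) held a junction that moved by at least 20 percentage points between Day 2 and Day 0 under PCBP2 knockdown, and 4253 did so in the control. In 98.4% of those 4830 the same junction moved in the same direction in the control, and in 3153 (65.3%) it did so by at least 20 points. They lay in 2276 of 7021 named genes (32.4%).

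E(PSI) was set against the Salmon transcript estimates of single libraries for variations whose junctions could be tied to annotated transcripts. Of 1825 such variations past 20 points, 1644 (90.1%) had the same direction in the Salmon shares, and in 1368 (75%) the 3 Day 2 libraries and the 3 Day 0 libraries also did not overlap. The share without overlap was not computed over all 11306 variations tied to transcripts, so the 75% has no background beside it. Across those 11306 variations the changes by E(PSI) and by Salmon had a Pearson r of 0.55. Both measures come from the same libraries, so neither is an independent check of the other. Among the variations past 20 points, the median size of the change was 29.8 points in E(PSI) and 14 points in the Salmon shares.

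Some junctions changed almost completely. In Tnrc6a, a component of microRNA silencing complexes, with a choice of only 2 junctions, one of them (chr7:123179859-123180249) stood at 90.7% on Day 2 and 2.0% on Day 0. In Hnrnpl, a splicing repressor, an unannotated retained intron (chr7:28810373-28810435) stood at 84.3% on Day 2 and 3.3% on Day 0. That is a share within 1 variation, not of the gene's mRNA. By Salmon, coding transcripts of Hnrnpl averaged 72.2 TPM on Day 2 and 278 TPM on Day 0. Its annotated retained-intron transcripts averaged 57.5 TPM on Day 2 and 71.6 TPM on Day 0. Junctions in Nsmf (89.3% on Day 2 and 0.2% on Day 0), Clstn1 (88.3% and 0.2%) and Dhx32 (87.6% and 0.5%) were also used more on Day 2. Junctions given up by Day 2 included one in Cog5, a Golgi tether (2.3% on Day 2 and 95.8% on Day 0), one in Ksr1, a scaffold of the RAF pathway (0.9% and 93.0%), and one in Lrp6, a WNT coreceptor (9.9% and 99%). The control values were on the same side for each: 93.4% on Day 2 and 1.3% on Day 0 for Tnrc6a, and 5.6% and 98.1% for Cog5.

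Splicing factors were often among the genes with a shifted junction. A variation past 20 points was found in 29 of 38 genes of the splicing factor and hnRNP list (76.3%), against 32.4% of all named genes. Tissue-specific splicing regulators had 7 of 12, heme synthesis 7 of 15 and erythroid transcription factors 9 of 19, whereas DNA replication had 2 of 40 and mitosis 2 of 33. A gene with more variations has more chances to hold one past 20 points. The median per gene was 14 variations for splicing factors, 13 for DNA replication and 15 for mitosis, against 8 over all named genes. The part of this number in the shares was not tested, and the control was not counted by list. At the gene level 8 of 38 splicing factor genes rose and 21 fell, 2 and 13 of them by more than 2-fold, with a median of -0.33 that turned to 0.17 with the GC trend removed. Snrpd1, a core protein of spliceosomal particles, fell by 3.21 on the log2 scale and Ptbp1, a repressor of many exons, by 2.29. Rbm38, a splicing regulator of late erythroid cells, had 598, 532 and 605 CPM on Day 2 and 40.5, 28.6 and 41.9 CPM on Day 0.

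Many SR and hnRNP genes carry an extra exon, or an exon whose skipping shifts the frame, that brings in an early stop codon and marks the mRNA for nonsense-mediated decay. The factors are known to limit their own level through such exons. The events below were chosen after their values were seen. In Srsf3, a small SR protein, the junction into the extra exon (chr17:29038624-29039454) stood at 89.4% on Day 2 and 6.1% on Day 0, and at 87.2% and 5.8% in the control. The junction that leaves the exon moved alike, at 91.3% on Day 2 and 8.1% on Day 0. The matching junctions stood at 76.8% and 8.4% in Srsf7, an SR protein, at 78.1% and 31.3% in Tra2a, an SR-like regulator, and at 61.6% and 11.9% in Snrnp70, a protein of the U1 particle. In Hnrnpdl, a downstream donor site stood at 74.8% on Day 2 and 6.7% on Day 0.

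Printed below are the sequences from the start of the extra exon to its stop codon (in capitals). That of Srsf3 is chr17:29039454-29039487 (plus strand, of an exon of 456 bases). That of Tra2a is chr6:49252965-49253108 (minus strand, of an exon of 306 bases). Both were read from GENCODE M21 transcripts of GRCm38 annotated as nonsense-mediated decay. The annotated Tra2a exon ends at 49252803. Under PCBP2 knockdown the Day 2 junctions from there into the next exon left from unannotated sites beside that end (chr6:49252515-49252797 at 58.2% and chr6:49252515-49252808 at 16.3%). The printed stretch stops before these sites.
Srsf3 extra exon: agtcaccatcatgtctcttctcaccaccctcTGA
Tra2a extra exon: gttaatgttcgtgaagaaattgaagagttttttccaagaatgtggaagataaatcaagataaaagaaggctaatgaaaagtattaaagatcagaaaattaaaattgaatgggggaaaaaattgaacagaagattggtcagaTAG

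**Figure D4:**
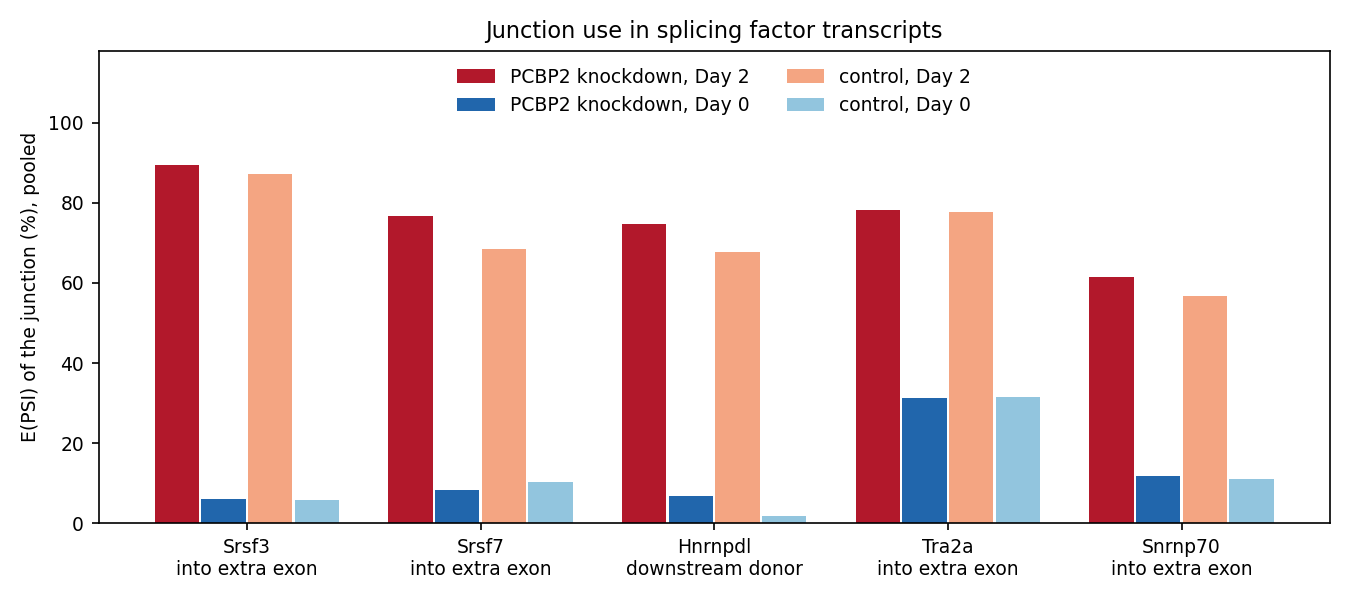
E(PSI) in percent of 1 junction in each of 5 splicing factor genes, with bars for the PCBP2 knockdown on Day 2 and Day 0 and for the control on Day 2 and Day 0, each a single pooled value. The Day 2 bars are higher than the Day 0 bars for all 5 junctions in both conditions, as in Srsf3 (89.4% on Day 2 and 6.1% on Day 0 under PCBP2 knockdown).

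Salmon estimates per library allowed these transcripts to be followed with replicates. In Srsf3 the coding transcript had 8.6, 10.3 and 9.6 TPM on Day 2 and 184, 188 and 188 TPM on Day 0. The transcript annotated for nonsense-mediated decay had 83.3, 85.0 and 111 TPM on Day 2 and 64.0, 65.1 and 64.6 TPM on Day 0. Its share of the gene was 76.5% on Day 2 (74.0% to 80.3%) and 13.6% on Day 0 (13.4% to 14%). The retained-intron transcripts of Srsf3 had 18.7, 19.6 and 17.6 TPM on Day 2 and 229, 229 and 208 TPM on Day 0, and the whole gene had 121 TPM on Day 2 and 473 TPM on Day 0. On the other scale, TMM-scaled CPM with no length correction, the gene was not called (392 CPM on Day 2 and 388 CPM on Day 0, log2 0.02, SE 0.10, edgeR adjusted p 0.882). In Tra2a the decay transcript had 81.6, 91.2 and 103 TPM on Day 2 and 45.6, 50.1 and 35.2 TPM on Day 0, while its coding transcripts had 16.7, 14.4 and 15.7 TPM on Day 2 and 83.8, 85.3 and 89.0 TPM on Day 0. The whole Tra2a gene had 120 TPM on Day 2 and 137 TPM on Day 0. On the TMM-scaled CPM scale, which sets the Day 2 level higher relative to Day 0 than TPM does, the gene rose by a log2 change of 1.69.

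Over all genes with such a transcript and a mean of at least 5 TPM, the decay share was higher in every Day 2 library than in any Day 0 library for 564 of 1957 (28.8%), and the median difference was 1.25 points. For splicing factors it was higher in 19 of 21, with a median difference of 11.0 points. The exceptions were Hnrnpu, whose share was lower (49.7% on Day 2 and 56.7% on Day 0), and Snrpa, whose libraries overlapped. Besides Srsf3 and Tra2a, the share was 45.3% on Day 2 and 9.7% on Day 0 in Hnrnpdl, 45.6% and 13.8% in Tra2b, 43.9% and 13.0% in Hnrnpd, 29.8% and 9.1% in Srsf2, and 26.0% and 6.9% in Srsf1. In the controls it was 79.1% and 12% for Srsf3 and 49.7% and 9.6% for Hnrnpdl. Among factors of the decay pathway itself, 8 of 15 tested genes rose and 7 fell (median 0.31, or -1.12 with library totals). Upf2, a core decay factor, rose by 2.11, and Magohb, a protein of the exon junction complex, fell by 2.80.

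**Figure D5:**
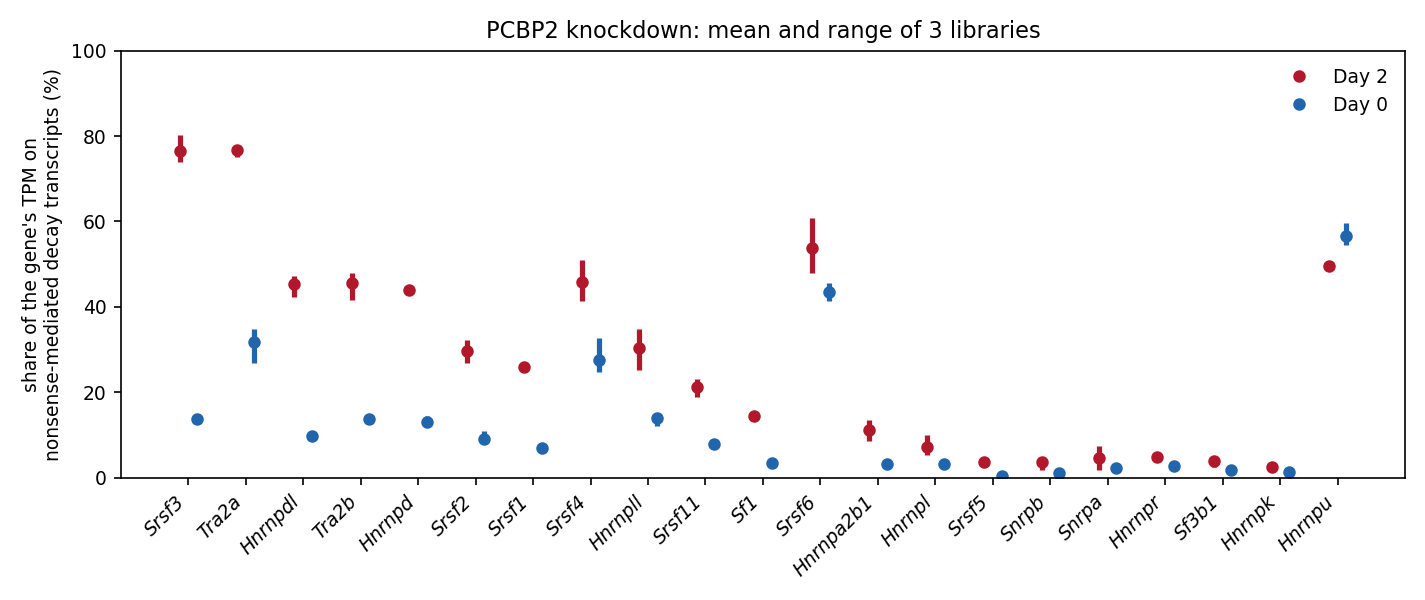
Share of each splicing factor gene's TPM on transcripts annotated for nonsense-mediated decay, in percent, for the PCBP2 knockdown on Day 2 and Day 0 (points are means of 3 libraries, lines their range). The Day 2 points are above the Day 0 points for all genes drawn except Hnrnpu (49.7% on Day 2 and 56.7% on Day 0), with the widest gap in Srsf3.

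Erythroid and PCBP genes held shifted junctions too, all chosen after their values were seen. Pcbp2 used a junction not found in the annotation (chr15:102490803-102493661) at 45.2% on Day 2 and 3.7% on Day 0, and at 39.5% and 0.7% in the control. In Gata1, an unannotated junction stood at 42.0% on Day 2 and 1.4% on Day 0, and at 38.7% and 0.8% in the control. In Klf1 an unannotated junction stood at 27.3% and 1.6%, against 11.6% and 3.7% in the control. Epor (25.6% and 0.5%, with 11.2% and 0.1% in the control) and Tfrc, the transferrin receptor (26.1% and 0.5%, with 22.1% and 0.2%), had similar shifts. In Fech, which inserts iron into heme, a junction of an annotated decay transcript stood at 38.3% on Day 2 and 0.1% on Day 0, and at 6.8% and 0.1% in the control.

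The change of a junction between days differed from the control by at least 20 points in 933 variations (1.15%). The differences, with no test, were largest in Nckap1, of the actin-regulating WAVE complex (55.1% on Day 2 and 6.3% on Day 0 under PCBP2 knockdown, 1.0% and 7.9% in the control), Herc2, a ubiquitin ligase (88.7% and 17.2%, with 53.4% and 33.4% in the control), and Phc3, a Polycomb protein (25.6% and 40.9%, with 52.5% and 16.7%). Kctd3 (83.1% and 0.4%, with 33.1% and 0.2%), Metap1, a methionine aminopeptidase (73.4% and 14.8%, with 17.6% and 6.1%), and Cdk16 (45.3% and 25.8%, with 18.7% and 46.4%) came next.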

How the data were processed

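RNA was sequenced from 18 libraries (6 groups of 3). Per the submitters' processing notes, FastQC 0.11.9, STAR 2.5.3a, SAMtools 1.9, Salmon 0.11.3 and Trim Galore were used with GRCm38. The authors deposited, per library, Salmon's estimated count and TPM for each transcript, along with its effective length. They also deposited pooled E(PSI) values of splicing variations, as a fraction per junction. The tool behind these tables, its settings and the strand of the libraries are not given in the sources used here.

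Of 111706 transcripts 110403 matched GENCODE M21. Estimated counts were summed to 46167 genes and rounded to whole numbers, and the expression filter of edgeR kept 17500. All 18 libraries entered 1 quasi-likelihood fit in edgeR 4.0.16 (R 4.3.3), with TMM scaling. It held a mean for each of the 6 groups, which leaves 12 residual degrees of freedom. The common dispersion, a measure of spread, was 0.0300 over the 9 Day 2 libraries and 0.00766 over the 9 Day 0 libraries. The fit shares 1 estimate of spread per gene across days, so equal SEs do not show equal spread. Adjusted p-values are Benjamini-Hochberg over all tested genes, with a threshold of 0.05, and "rose" and "fell" are kept for genes past it. "More than 2-fold" used edgeR's glmTreat test against a log2 change of 1. The difference of day changes was the interaction contrast. DESeq2 1.42.0 and limma 3.58.1 were alternatives. The code was tested on counts simulated from Day 0 proportions, with few genes changed and the same spread on both days. Such counts do not test the scaling under shifts as large as those between these days. E(PSI) is given in percent. TPM of transcripts annotated as nonsense-mediated decay, over the TPM of the gene, gave decay shares.

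Genes were named by rule: the PCBP family and Hnrnpk, all globins, the 12 largest called changes each way among genes averaging at least 10 CPM whose groups did not overlap, the 3 highest and 3 lowest called members of each list, and up to 8 genes each way by smallest p for a difference of changes. Junctions named by rule were the 8 largest changes each way and the 6 largest differences from control. Not every gene that the rule names is described, and a few are not reported here. Gene lists also covered amino acid transporters, proteasome genes and markers of other cell types. The members, lists and alternatives were chosen with earlier results of these data known.

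Libraries held 27033440 to 54096339 estimated reads, and low genes are limited by counting error. Values with their SD cover 3 libraries a group. The exact permutation test of 3 against 3 cannot go below 0.10, so single values rest on the fit across genes.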

Additional observations from a re-analysis of the deposited data

Results flagged for a closer look

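For 16 genes the day change under PCBP2 knockdown differed from that in the PCBP1 knockdown by a test of the difference itself (edgeR interaction contrast, adjusted p under 0.05, n = 3 libraries a group). These are the 8 genes each way with the smallest p among 217. The control changes of the same genes were not part of that test, and no cause was tested.

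Those with a higher change under PCBP2 knockdown were Slc35f5, a solute carrier (difference of log2 changes 1.42), Twsg1, a regulator of BMP signalling (1.27), Hba-a2, an adult alpha-globin gene (1.22), Tspan31, a tetraspanin (1.17), and Urb2, of ribosome biogenesis (1.02). Smaller positive differences were those of Pyurf (0.88), Taf1d, of RNA polymerase I initiation (0.75), and Slc25a3, the mitochondrial phosphate carrier (0.67). Hba-a2 shares reads with the near-identical Hba-a1. Of the 4 tested adult globin genes, Hba-a1 included, only Hba-a2 was called here, and their median difference was -0.004. Under PCBP2 knockdown Hba-a2 had 12329, 12718 and 13787 CPM on Day 2 and 22.4, 33.8 and 28.0 CPM on Day 0. In the PCBP1 knockdown it had 5915, 10757 and 8118 CPM on Day 2 and 37.1, 43.9 and 44.0 CPM on Day 0.

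Those with a lower change were Reps2, an endocytic adaptor (-1.69), Col11a2, a collagen chain (-1.51), Pebp1 (-1.38), Eid1 (-1.19), and Ints14, of the Integrator complex (-1.16). Arhgap45 (-0.96), Dgkz, a diacylglycerol kinase (-0.89), and Setdb1, a histone methyltransferase (-0.85), followed. Without single Day 0 libraries, 4 of the 16 genes (Hba-a2, Taf1d, Pyurf and Twsg1) lost the call but kept the sign, and with an effective length offset Col11a2 and Dgkz did.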

How the results depend on the processing

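The total counts of genes that differed between the days under PCBP2 knockdown stayed within 1.5 times of those reported under every alternative run. Their split did not: of 14897 genes called with library totals, 4001 were higher and 10896 lower. For the 128 genes named at the gene level, 2517 of 2557 comparisons with an alternative kept direction and side of the threshold, 18 lost the call and 8 gained one. The sign turned in 14. With library totals the log2 change became -1.15 for Pcbp1, -0.68 for Cpox, -0.16 for Zbtb7a, -0.98 for Urb2, -0.35 for Tspan31, -1.41 for Srsf3 and -0.30 for Srsf1, of which Pcbp1 and Srsf3 were not called with TMM. That scaling shifts all genes, with a median of -1.42. With the GC trend removed, alone and with the replicate block, Hnrnpk became 0.21 and 0.21 and Tmem14c 0.17 and 0.16. Hnrnpk was 0.10 with a filter of 1 CPM in 3 libraries and 0.11 with an effective length offset, where Srsf3 was -0.30. The cause was not tested for Hnrnpk, Tmem14c and Srsf3.

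The difference from the control change (0 genes) was 169 genes with no filter on low counts, 90 with DESeq2, and between 0 and 3 with 1 library left out, 3 being without the SCR-1 library of Day 2. The difference from the PCBP1 knockdown (217 genes) was 120 with library totals, 734 with no filter, 1190 with DESeq2, 88 with an effective length offset, and between 45 and 1156 with 1 library left out. It was 45 without hairpin 1 of the Day 0 PCBP1 knockdown, 1156 without hairpin 3 of the Day 2 PCBP1 knockdown, and 812 without LUC-1 of Day 2, which was added once the data had been seen. The cause was not tested. Splicing variations past the threshold numbered 12286 at 10 points, 2247 at 30 points and 156 of 12402 with only 2 junctions.

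Hairpin numbers did not pair the libraries: deviations from the group mean correlated at 0.0122, 0.0407 and 0.0418 for the same Pcbp2 hairpin on both days, although each Day 2 library correlated best with its own number. With hairpin as a replicate block 14322 genes were called for the day, 1 for the difference from control and 136 for that from the PCBP1 knockdown, and 1 and 135 with the GC trend also removed. Pooled E(PSI) values carry no depth, so differences in them have no error.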
